A study of Mus musculus with 13 samples.

Results

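Mouse embryonic fibroblasts (MEFs) without the kinase PERK were followed late in the response to thapsigargin (Tg), an inhibitor of the calcium pump SERCA. The comparison rests on 3 of the study's 13 ribosome footprint libraries: PERK -/- MEFs without Tg (control), after 5 h of Tg and after 8 h of Tg. All 3 carry the PERK deletion, and Tg was given at a micromolar dose. The study also sequenced WT MEFs, earlier times and NIH3T3 cells, which enter here only where named. Genes were those with a mean TPM (a length-scaled share of the library) of at least 2 over the 10 MEF libraries, 10432 of 22406 symbols. TPM values under 4 were raised to 4, and a gene was called higher or lower when this floored TPM differed at least 2-fold from the control.

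There were no replicates: every condition is a single library, and no change here has a replicate spread beside it. The 5 h and 8 h comparisons share their control, while the ratio of 8 h to 5 h does not use it. The cells were trypsinized and flash frozen without cycloheximide. Footprints measure ribosomes on a coding sequence, so a change of the mRNA and a change of its translation cannot be told apart here. TPM values are shares of a library, and each change is a gain or loss relative to the other genes. For single genes, the 95% interval is the exact conditional (Clopper-Pearson) interval of the ratio of expected counts per library total, on the log2 scale. It covers counting error only.

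Proteins that enter the secretory pathway fold in the lumen of the endoplasmic reticulum (ER), whose chaperones need calcium. When calcium is lost and unfolded proteins gather, the unfolded protein response (UPR) is switched on by PERK, IRE1 and ATF6. PERK phosphorylates the initiation factor eIF2, which lowers translation in general and favours that of ATF4, IRE1 splices the mRNA of the transcription factor XBP1, and ATF6 is cut into a transcription factor in the Golgi.

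Eif2ak3, which encodes PERK (chr6:70844484-70905241, GRCm38), still had footprints in the PERK -/- libraries. Its expected counts were 74 (control), 106 (5 h) and 142 (8 h), or 10.99, 13.19 and 19.07 CPM (counts scaled to the library total). WT MEFs had 21.3 CPM without Tg, 33.3 after 5 h and 32.7 after 8 h. In CPM, Eif2ak3 was thus lower in the PERK -/- library of each pair but not at 0. In TPM it was not lower: 11.2, 14.9 and 17.2 in PERK -/- MEFs beside 6.03, 13.98 and 15.68 in WT MEFs. The measures differ in direction, so the level of Eif2ak3 does not by itself mark the deletion. Which part of the gene these footprints lie on is not given by a table of gene counts.

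The control library held 6735073 expected counts, the 5 h library 8035736 and the 8 h library 7446112, so that 3 counts stood for 0.445, 0.373 and 0.403 CPM. The median gene had 203, 239 and 236 counts. The 5 h library stood apart at low levels. It had 121 of the genes analysed at 0 counts, against 40 in the control and 34 at 8 h, although it was the deepest of the 3. Over all symbols, 10622 were at 0 at 5 h, against 9772 in the control and 9759 at 8 h. The part of these zeros in the changes at 5 h was not tested. With the mean TPM taken over the other 9 MEF libraries, an alternative chosen after seeing the data, 334 genes were higher and 498 lower at 5 h.

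All 10 fibroblast markers passed the limit on mean TPM and none was at 0 in any of the 3 libraries. Their summed TPM was 7673 in the control, 5894 after 5 h and 6185 after 8 h, and Vim, an intermediate filament, was the most abundant (2581, 2946 and 2692 TPM). In both Tg libraries, 6 of the 10 were under the control: Col1a1 (2207, 1095 and 1245 TPM), Col1a2 (921, 617 and 712 TPM), Col3a1 (144, 81.1 and 110.4 TPM), Fn1 (589, 249 and 207.5 TPM), Postn (239.9, 116 and 99.4 TPM) and Pdgfrb (68.0, 49.4 and 40.1 TPM). Of these, Fn1 and Postn were past 2-fold at both times. Vim was above the control at both times, and Thy1 (127, 127 and 148 TPM), Pdgfra (8.26, 7.60 and 10.8 TPM) and S100a4 (788, 606 and 920.0 TPM) were above the control at 8 h. In bulk samples, fewer cells of a type and less RNA per cell cannot be told apart. The summed TPM of 6 epithelial markers was 10.1, 6.78 and 5.16, mostly of Krt18, with 2, 4 and 2 markers at 0, among them Krt5. The 6 macrophage markers summed to 3.47, 2.02 and 4.80 TPM, mostly of Cd68, with Lyz2, Adgre1 and Itgam at 0 in all 3 libraries. The 4 endothelial markers summed to 5.05, 2.58 and 2.41 TPM from Kdr alone, with Pecam1, Cdh5 and Tek at 0. The 4 muscle markers summed to 0.31, 2.04 and 0.88 TPM from Des alone, with Myod1, Myog and Myh3 at 0. The 4 adipocyte markers summed to 33.3, 37.5 and 24.6 TPM, nearly all from Fabp4, with Adipoq and Plin1 at 0. The 4 neural markers summed to 86.0, 86.1 and 90.1 TPM. Tubb3, Map2 and Nes had footprints in each library and Sox2 was at 0 at 8 h, and the sums were led by Map2 in the control and by Tubb3 in both Tg libraries.

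At 5 h, 340 genes were at least 2-fold higher (3.26% of the genes analysed) and 498 at least 2-fold lower (4.77%). At 8 h, 342 were higher (3.28%) and 285 lower (2.73%). These shares of all genes are the background for every count of called genes in the lists below, also where they are not repeated. The order at 8 h turned with other scalings: 275 were higher and 335 lower with TMM factors, and 277 and 334 with DESeq2 size factors. The median log2 change of all genes was 0.00 at 5 h and 0.04 at 8 h.

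The late libraries agreed on 93 genes that were at least 2-fold higher at both times (0.891%) and on 142 that were at least 2-fold lower at both (1.36%). Of the 340 genes higher at 5 h, a further 193 were higher by less than 2-fold at 8 h, 24 were equal to the control at the floor, 26 were lower by less than 2-fold and 4 were at least 2-fold lower. Of the 498 genes lower at 5 h, a further 253 were lower by less than 2-fold at 8 h, 98 were higher by less than 2-fold and 5 were at least 2-fold higher. Seen from 8 h, 181 of the 342 higher genes were also higher at 5 h by less than 2-fold, 23 were equal at the floor, 40 were lower by less than 2-fold and 5 at least 2-fold lower. Of the 285 genes lower at 8 h, 119 were also lower at 5 h by less than 2-fold, 20 were higher by less than 2-fold and 4 at least 2-fold higher.

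Set against each other, the late libraries differed at least 2-fold in more genes that were higher at 8 h (497, 4.76%) than lower (223, 2.14%). With TMM factors this split was 395 to 284. Of the 497 and 223 genes, 285 and 113 had at least 100 expected counts in 1 of the 3 libraries. Only 9 genes (0.0863%) were called in opposite directions against the control, 5 of them lower at 5 h and higher at 8 h.

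**Figure D1:**
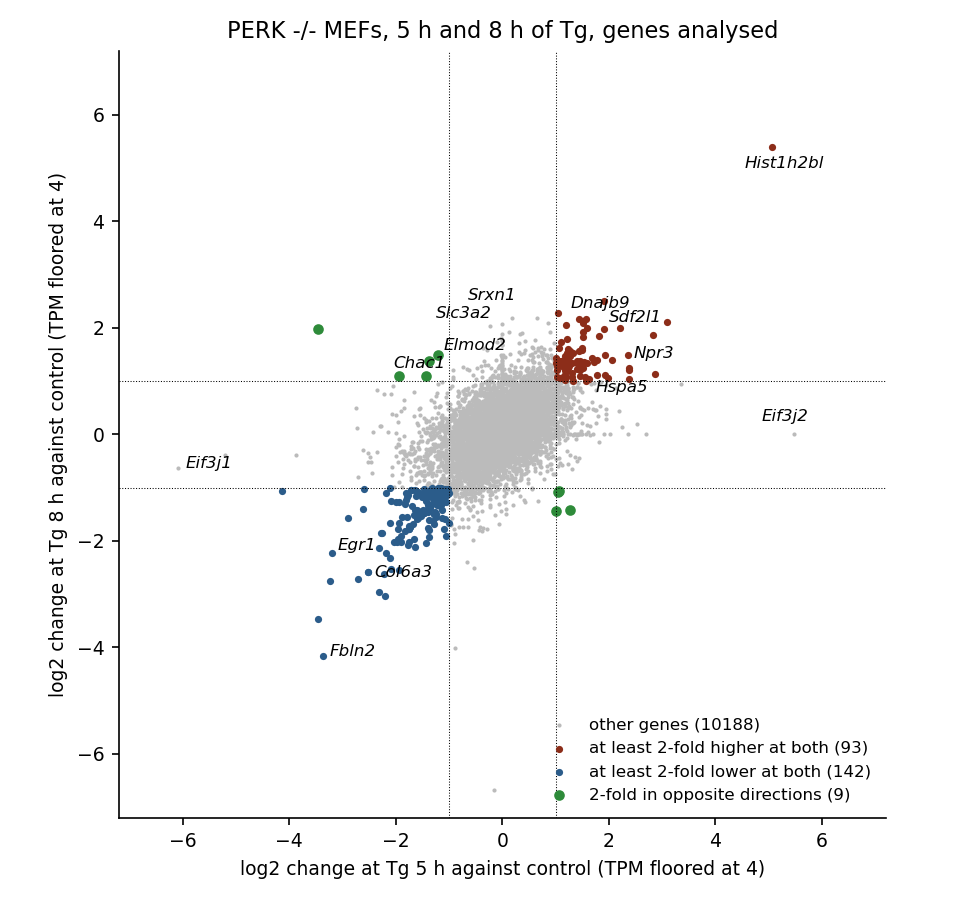
Log2 change of floored TPM at 5 h (x axis) and at 8 h (y axis) of Tg against the PERK -/- control, 1 point per gene analysed. Red points are the 93 genes at least 2-fold higher at both times, blue points the 142 lower at both, and green points the 9 called in opposite directions; dotted lines mark 2-fold.

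The sensors of the UPR had footprints in all 3 libraries. Xbp1 (chr11:5520641-5525993), whose mRNA IRE1 splices, had 34.5 TPM in the control, 97.7 after 5 h and 103 after 8 h, from 252, 892 and 843 counts. It was 2.84-fold and 2.99-fold higher, with intervals of 1.37 to 1.78 and 1.39 to 1.81. Creb3l2, a membrane-bound transcription factor related to ATF6, had 25.1, 52.0 and 63.2 TPM and was also past 2-fold at both times. Atf6 itself had 27.9, 35.2 and 41.8 TPM, and Ern1, which encodes IRE1, had 4.64, 5.77 and 6.86 TPM. Neither reached 2-fold. Over the 11 genes of ER sensors and transcription factors, 2 were called higher at each time and 0 lower. Their median log2 change was 0.31 at 5 h and 0.58 at 8 h, beside 0.00 and 0.04 for all genes.

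The chaperones of the ER lumen split into a called group and a larger group with smaller values. Hspa5, the ER member of the HSP70 family, also called BiP (chr2:34772090-34776529), had 1646 TPM in the control, 3890.3 after 5 h and 4376 after 8 h. Its 22482, 64985 and 65729 counts gave intervals of 1.25 to 1.30 at 5 h and 1.38 to 1.42 at 8 h. Sdf2l1 (chr16:17130138-17132383), a partner of HSPA5, had 38.9, 145 and 153 TPM and was 3.73-fold and 3.94-fold higher. Dnajb9 (chr12:44205897-44210068), a co-chaperone that acts on HSPA5 and IRE1, had 30.4, 90.3 and 137 TPM. It was 2.97-fold higher at 5 h and 4.50-fold at 8 h, and the 8 h library was above the 5 h library by 0.38 to 0.73 (log2, interval). Manf, a secreted ER protein, had 369.9, 920.0 and 935 TPM, with no difference between the late libraries beyond counting error (interval −0.09 to 0.05). Creld2, which also resides in the ER and is secreted, had 131, 296 and 304 TPM. These 5 genes were the only ones of 27 lumenal chaperones called higher, at 5 h and again at 8 h. Cnpy3, a chaperone of Toll-like receptors, was the 1 called lower, at 5 h (160, 75.4 and 115 TPM). Creld2 and Cnpy3 were named after their values were seen, as were the genes below that lie outside the rule for named genes. The median of the list was 0.10 at 5 h and 0.55 at 8 h, and 25 of the 27 were above the control at 8 h. The summed TPM was 15376, 19496 and 23732.

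**Figure D2:**
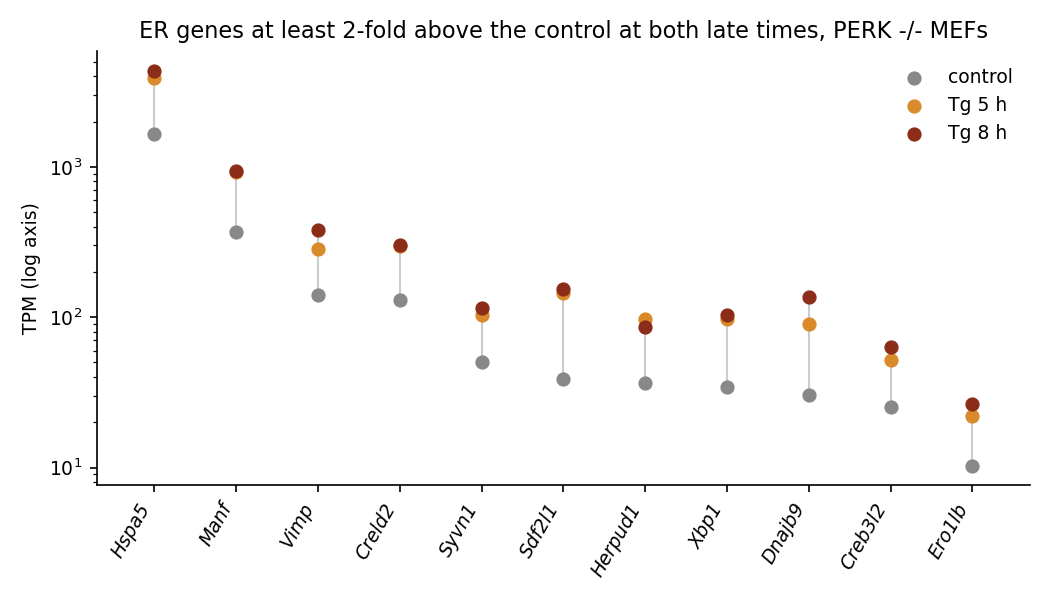
TPM (log axis) of the 11 genes of the ER lists that were at least 2-fold above the PERK -/- control at 5 h and at 8 h of Tg, 1 point per library. For each gene both Tg points lie above the control point, and for Manf, Creld2, Xbp1 and Sdf2l1 they lie closest together.

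Of 18 ER disulfide oxidoreductases, Ero1lb, which passes electrons from protein thiols to oxygen, was called at both times, with 10.3, 22.1 and 26.6 TPM. Txndc11, a thioredoxin-fold protein, was called at 5 h only, with 7.86, 19.6 and 13.6 TPM. Its 8 h library lay below its 5 h library by more than counting error (interval −0.67 to −0.23). The median of the list was 0.14 and 0.50.

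ER-associated degradation passes misfolded proteins to the proteasome. Of its 29 genes, Herpud1, Syvn1 and Vimp were called at both times. Herpud1 (chr8:94386429-94395371), which organizes the ubiquitin ligase complex, had 36.5, 96.7 and 85.8 TPM, and was lower at 8 h than at 5 h by counts (interval −0.36 to −0.10). Syvn1, the ubiquitin ligase HRD1, had 50.5, 103 and 116 TPM. Vimp, which binds the ATPase p97, had 141, 283 and 379 TPM. Its log2 change at 5 h was 1.0004, at the edge of the rule, and 0.99 with DESeq2 size factors, under which Vimp is not called at 5 h. Selk, a selenoprotein of the ER membrane, passed 2-fold at 8 h only, with 99.1, 193 and 201 TPM, although its 5 h and 8 h values differed by less than counting error (interval −0.21 to 0.24). With TMM or DESeq2 factors its log2 change at 8 h was 0.95, so that Selk is not called. Derl3, a derlin, passed it at 5 h only, from 13, 30 and 27 counts. The median was 0.18 at 5 h and 0.51 at 8 h.

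In the machinery that brings proteins into the ER and glycosylates them, more genes passed 2-fold at 8 h than at 5 h. The difference between the times was not tested, and 2 of the genes were at least 2-fold higher at 8 h than at 5 h. Of 40 genes, 1 was higher at 5 h and 11 at 8 h, beside 3.26% and 3.28% of all genes, and 33 were above the control at 5 h and 38 at 8 h. The 11 were Sec61a1, the pore of the translocon (392, 663 and 887 TPM), Ssr4, Spcs2, Sec11c, Srprb, Dad1, Krtcap2, Dpagt1, Alg2, Alg12 and Alg14. With TMM or DESeq2 factors Ssr4, Krtcap2, Alg2 and Alg14 fall short of 2-fold. Sec11c, a catalytic subunit of the signal peptidase, had 39.6, 70.1 and 102 TPM. Dpagt1, which starts the lipid-linked oligosaccharide, had 24.2, 45.8 and 59.3 TPM. Both lay above the control already at 5 h, under 2-fold. Alg12 and Alg14, enzymes of later and earlier steps of the same oligosaccharide, did not: Alg12 had 84, 74 and 198 counts, and Alg14 27.4, 20.9 and 57.4 TPM. Serp1, which stabilizes membrane proteins at the translocon, was the 1 gene called at 5 h (259, 579 and 415 TPM). The list median was 0.33 at 5 h, 0.67 at 8 h and 0.38 for 8 h over 5 h.

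Of 46 genes of transport between ER and Golgi, 2 were called higher at 5 h (Arfgap3 and Mcfd2) and 5 at 8 h (Sec24d, Tmed3, Kdelr2, Kdelr3 and Surf4), beside 3.26% and 3.28% of all genes. Surf4, a cargo receptor, had 496, 934 and 1211 TPM. Sec24d, a cargo adaptor of the COPII coat, had 61.5, 112 and 148 TPM. Tmed3, a p24 cargo receptor, was level at 5 h and higher at 8 h (38.9, 38.8 and 95.3 TPM), and Arfgap3, which acts on the COPI coat, was highest at 5 h (25.6, 59.6 and 39.9 TPM). Over the list, the median was 0.23 and 0.46.

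The promoters of ER genes called at both times were read for motifs known for the UPR, because these genes moved together. RefSeq promoter entries (GRCm38.p6) were found for 10 of the 11, all but Manf, and the 250 bases before each start were searched on both strands. The motifs were the ER stress element ERSE (CCAAT, any 9 bases, CCACG), ERSE-II (ATTGG, any base, CCACG) and the core of the UPR element (TGACGTG). ERSE was in 37 of all 32851 promoter entries (0.113%), ERSE-II in 10 (0.0304%) and the UPR element core in 542 (1.65%). Of the 10 genes, 4 had ERSE, 1 had ERSE-II and 1 had the core. Of the 139 genes of the ER lists analysed that had an entry, 11 had ERSE, 1 had ERSE-II and 9 had the core. The stretches with a match follow, 5′ to 3′ on the strand of the gene, which is the plus strand for all 5, with the fixed letters of a motif in capitals. They lie at chr2:34771927-34772049 (Hspa5), chr8:94386371-94386393 (Herpud1), chr13:12565676-12565706 (Ero1lb), chr15:88819514-88819544 (Creld2) and chr19:6046526-6046556 (Syvn1).
Hspa5: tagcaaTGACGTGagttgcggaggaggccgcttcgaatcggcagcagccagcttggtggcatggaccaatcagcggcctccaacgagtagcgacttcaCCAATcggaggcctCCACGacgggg
Herpud1: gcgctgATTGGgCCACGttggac
Ero1lb: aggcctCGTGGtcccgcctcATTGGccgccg
Creld2: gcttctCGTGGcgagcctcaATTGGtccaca
Syvn1: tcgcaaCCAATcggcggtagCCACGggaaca
In Hspa5 the ERSE ends 46 bases before the start, and the core of the UPR element lies farther upstream. The ERSE of Ero1lb and Creld2 is on the opposite strand. A match of letters is a description and not a binding site. The motifs are known for the UPR, and the genes were picked from ER lists after their values were seen. Matches in them are thus no independent result, and the shares were not tested. Over all 93 genes called higher at both times, 72 had an entry, and of these 5 had ERSE (6.94%) and 1 had the core (1.39%). Of the 8382 genes analysed with an entry, 15 had ERSE (0.179%) and 246 had the core (2.93%). Of the 142 called lower at both, 98 had an entry and 0 had ERSE or the core.

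Genes that PERK is known to raise through ATF4 and CHOP formed a list of 22. Atf4 had 41.4, 60.2 and 58.2 TPM, and Ddit3, which encodes CHOP, had 6.91, 10.8 and 13.4 TPM from 21, 42 and 49 counts. Ppp1r15a, the subunit that directs a phosphatase to eIF2, had 4.82, 6.27 and 6.44 TPM. None of the 3 reached 2-fold at either time. Of the 22 genes of the list, 3 were higher and 5 lower at 5 h, and 1 was higher and 0 lower at 8 h. Over all genes, the shares were 3.26% higher and 4.77% lower at 5 h, and 3.28% higher and 2.73% lower at 8 h.

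The 1 gene higher at 8 h was Chac1 (chr2:119351242-119354326), which degrades glutathione. It had 15.3 TPM in the control, 3.86 after 5 h and 32.9 after 8 h, from 65, 20 and 153 counts. Its intervals were −2.76 to −1.21 at 5 h and 0.66 to 1.53 at 8 h. Trib3, a pseudokinase that ATF4 and CHOP induce, had 12.5, 5.30 and 15.5 TPM, and Cebpg, a bZIP partner of ATF4, had 21.2, 8.67 and 32.4 TPM. Like Chac1, both were lowest at 5 h and highest at 8 h. Nupr1, a small stress-induced chromatin protein, had 147, 58.0 and 93.9 TPM and was under the control in both Tg libraries. Bbc3, the BH3-only protein PUMA, had 22, 1 and 21 counts. The 3 genes higher at 5 h were Dusp1, a phosphatase of MAP kinases (33.6, 71.4 and 65.4 TPM), and 2 with under 100 counts in each library, Atf5 (17, 60 and 34 counts) and Jdp2 (47, 80 and 54 counts). For Jdp2 the counts at 5 h were less than 2-fold those of the control, so its call holds in TPM only. The median log2 change of the list was 0.00 at 5 h and 0.32 at 8 h, where 14 genes were above the control and 5 under it, beside 5599 and 4179 of the 10432 genes analysed. The interval of the median at 8 h was 0.00 to 0.49.

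Of 21 enzymes of amino acid and one-carbon metabolism, 0 were called at 5 h and 2 were higher at 8 h. Gpt2, the mitochondrial alanine transaminase, had 92, 112 and 236 counts, and Aldh1l2, a mitochondrial folate enzyme, had 7.88, 6.87 and 16.7 TPM. For both, 5 h was at the level of the control. The genes of the list had a median of −0.02 at 5 h, which turned positive (0.03) in CPM, and 0.16 at 8 h. Of 20 cytosolic aminoacyl-tRNA synthetases, 0 were called at either time, with medians of −0.04 and −0.01.

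Among 22 amino acid transporters, 1 was higher and 1 lower at 5 h, and 5 were higher and 1 lower at 8 h. Slc3a2 (chr19:8706882-8723369), the heavy chain shared by several exchangers, had 263 TPM in the control, 478 after 5 h and 1123 after 8 h. Its 2391, 5909 and 11229 counts gave intervals of 0.98 to 1.12 and 2.02 to 2.15, and it rose between the late times by 0.99 to 1.08. Slc6a9, a glycine transporter, had 16.1, 23.6 and 50.0 TPM, and Slc36a4 had 110, 208 and 271 counts. Slc38a9, a lysosomal arginine sensor, was called at both times (4.90, 11.7 and 14.1 TPM). Slc7a11, the cystine exchanger that pairs with Slc3a2, had 34, 52 and 93 counts. The lower ones were the glutamate transporter Slc1a3 at 5 h (294, 163 and 183 counts) and the glutamine transporter Slc1a5 at 8 h (322, 226 and 159 counts). Across these genes the median was 0.45 and 0.61.

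Lipid genes stood higher at 8 h than at 5 h, mostly by less than 2-fold. Of 27 genes of sterol synthesis and uptake, 0 were higher and 1 lower at 5 h, and 1 was higher and 0 lower at 8 h. The median was 0.00 at 5 h, of no stable sign between scalings, and 0.40 at 8 h, and 24 of the 27 were above the control at 8 h. Ebp, a sterol isomerase, had 110 TPM in the control, 153 after 5 h and 238 after 8 h. Tm7sf2, a sterol reductase, was lowest at 5 h (19.9, 9.54 and 32.1 TPM) and 3.37-fold higher at 8 h than at 5 h. Of 13 genes of fatty acid synthesis, 0 were called at either time, with medians of 0.16 and 0.68 and a summed TPM of 3773, 4816 and 6315.

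Of 12 genes listed as targets of IRE1-dependent mRNA decay, 2 were higher and 2 lower at 5 h, and 1 was higher and 1 lower at 8 h. Bloc1s1, a subunit of a lysosome-positioning complex and a standard readout of this decay, had 113, 53.1 and 71.6 TPM, and Hgsnat, a lysosomal acetyltransferase, had 28.4, 10.1 and 12.9 TPM. Both were lowest at 5 h. Pmp22, a membrane protein of myelin, went the other way (88.5, 206 and 306 TPM), as did the growth factor Bmp4 at 5 h (91, 232 and 185 counts). The list medians were −0.18 and −0.05.

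Genes of the extracellular matrix were often called lower. Of 18 collagen chains, 8 were lower at 5 h and 5 at 8 h, and these 5 were lower at both times, while 0 were higher. Across all genes, 4.77% were lower at 5 h, 2.73% at 8 h and 1.36% at both. Col6a3 (chr1:90766860-90844001), a chain of beaded filaments, had 30.5 TPM in the control, 5.29 after 5 h and 5.09 after 8 h, from 2044, 440 and 366 counts. Col12a1, which decorates collagen fibrils, had 175, 66.8 and 64.0 TPM. Col5a1, which starts fibrils, had 149, 68.0 and 56.1 TPM, and Col18a1 of basement membranes had 11.1, 3.21 and 4.96 TPM. The last of the 5, Col5a3, had 382, 125 and 125 counts. The median of the collagens was −0.94 at 5 h and −0.81 at 8 h, and their summed TPM was 4437, 2528 and 2848.

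Of 46 other secreted matrix proteins, 18 were lower at 5 h and 19 at 8 h, 15 of them at both, and 0 were higher. The shares lower among all genes were 4.77% at 5 h, 2.73% at 8 h and 1.36% at both. Thbs1 and Emilin1, among the 18 lower at 5 h, fall short of 2-fold with TMM factors. Fbln2 (chr6:91212460-91272540), an elastic fibre protein, fell from 477 TPM to 46.3 at 5 h and 26.5 at 8 h, a log2 change of −3.37 and −4.17. Its 11943, 1414 and 730 counts gave intervals of −3.41 to −3.25 and −4.29 to −4.07. Fbn1, the fibrillin of microfibrils, had 197, 62.9 and 45.1 TPM. Nid1, which links laminin to collagen IV, had 122, 35.6 and 28.9 TPM, and Thbs2, a matricellular protein, had 1751, 550 and 562 counts. Fbln2, Fbn1 and Nid1 were lower at 8 h than at 5 h by more than counting error, and Thbs2 was not (interval −0.03 to 0.31). Fibronectin (Fn1) had 589, 249 and 208 TPM. The laminin chain Lamb1 had 110, 42.3 and 31.6 TPM, and perlecan (Hspg2) 95.5, 39.0 and 31.0 TPM. Ctgf (444, 213 and 119 TPM) and Cyr61 (813, 522 and 316 TPM) declined further between 5 h and 8 h. The list median was −0.77 at 5 h and −0.67 at 8 h.

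Pxdn, Has2, Mrc2 and Adamtsl3 were among the 12 genes with the largest decrease at both times, and are set together here after their values were seen. Pxdn, which cross-links collagen IV, had 84.7, 18.1 and 13.8 TPM. Has2, a hyaluronan synthase, had 37.4, 8.10 and 4.54 TPM, and was lower at 8 h than at 5 h (interval −1.36 to −0.41). Mrc2, an endocytic collagen receptor, had 42.8, 10.9 and 10.6 TPM, and Adamtsl3 had 675, 204 and 144 counts. Of 15 matrix metalloproteases and related ADAM genes, 2 were lower at 5 h (Mmp2 and Adam19) and 1 at 8 h (Adam19). Mmp2, a gelatinase, had 92.7, 45.8 and 61.5 TPM, and Adam19 had 264, 142 and 113 counts. The median was −0.29 and 0.00.

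All 9 integrin subunits analysed were under the control at both times, 2 of them past 2-fold at 5 h and 5 at 8 h. Itga3, a laminin receptor, had 54.2, 14.2 and 22.4 TPM and was lowest at 5 h. Itga6, also a laminin receptor, was lowest at 8 h (602, 429 and 217 counts), as was Itga11, a collagen receptor (233, 177 and 85 counts). Itgav, which pairs with several beta subunits, had 293, 171 and 137 TPM. Itgb3 had 170, 36 and 65 counts, and since both Tg values lay under 4 TPM, its floored change understates the change of the counts. The median was −0.69 and −1.10.

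**Figure D3:**
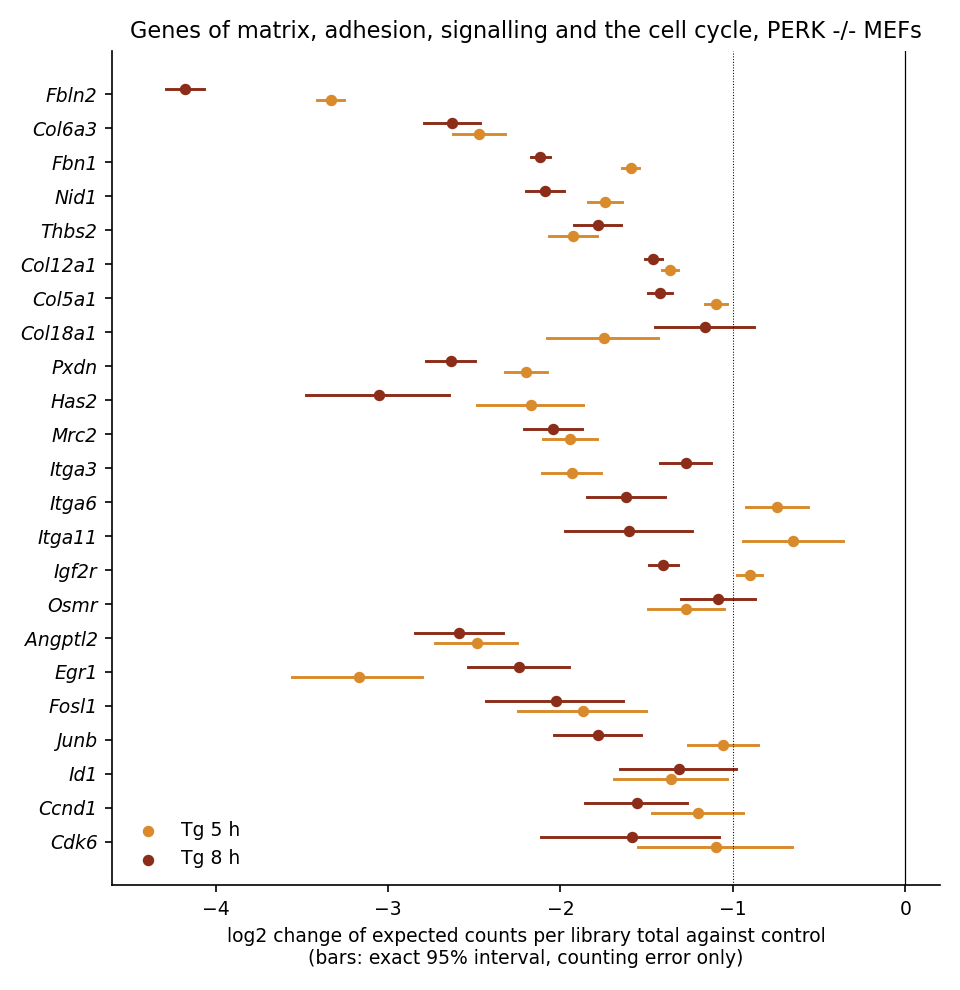
Log2 change of expected counts per library total against the PERK -/- control for 23 genes of matrix, adhesion, signalling and the cell cycle, at 5 h (orange) and at 8 h (brown), with exact 95% intervals for counting error only. The genes were chosen from those called lower at 5 h, at 8 h or at both, so each point lies under 0 by this choice. Genes called higher in the lists, such as Rb1 and Tgfb2, are not shown. The dotted line marks 2-fold lower, and Fbln2 is the lowest at both times.

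Growth factor receptors were called lower for 4 of 28 genes at 5 h and 2 at 8 h, and higher for 0. Among all genes, 4.77% were lower at 5 h and 2.73% at 8 h, and 3.26% and 3.28% were higher. Osmr, a cytokine receptor, was called at both times (25.7, 10.3 and 12.7 TPM), Igf2r at 8 h (73.2, 38.2 and 27.9 TPM), and Flt1 (14.0, 4.75 and 8.49 TPM), Tgfbr3 (18.9, 8.63 and 16.9 TPM) and Ror2 (20.9, 10.3 and 13.3 TPM) at 5 h. Over the list, the median was −0.40 and −0.28.

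Among 35 cytokines and growth factors, 2 were higher and 8 lower at 5 h, and 3 were higher and 8 lower at 8 h. Hbegf, a ligand of the EGF receptor, had 150, 35.2 and 26.1 TPM. Angptl2, a secreted angiopoietin-like protein, had 82.1, 14.3 and 13.7 TPM. Both were lower in each Tg library, as were Csf1 (144, 63.8 and 56.6 TPM), Fgf7 and Igf1. Ereg, another ligand of the EGF receptor, was lower at 5 h only (22.4, 4.79 and 37.9 TPM), from 65, 17 and 121 counts. Tgfb2 was higher at both times and highest at 5 h (19.8, 67.5 and 42.6 TPM). Cxcl10 (66.9, 102 and 145 TPM) and Ccl5 (7, 7 and 23 counts) were the others higher at 8 h. In all, the list had a median of −0.29 and −0.01.

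Immediate-early factors, which growth signals induce, were called lower for 9 of 24 genes at 5 h and 6 at 8 h, 4 of them at both times, and higher for 0. For comparison, 4.77% of all genes were lower at 5 h, 2.73% at 8 h and 1.36% at both. Egr1 had 46.6, 5.06 and 9.92 TPM, 9.20-fold lower at 5 h and 4.69-fold at 8 h. It was higher at 8 h than at 5 h by counts (interval 0.49 to 1.38). Fosl1 had 47.7, 12.8 and 11.8 TPM, Junb 79.3, 37.2 and 23.2 TPM and Myc 90.4, 35.7 and 40.3 TPM. Jun (61.9, 19.5 and 40.9 TPM), Ier3 (137, 40.3 and 98.3 TPM) and Srf (147, 22 and 118 counts) were nearer the control at 8 h. The genes of the list had a median of −0.30 and −0.35. Of 18 ID proteins and SMAD regulators, 2 were lower at 5 h (Id1 and Skil) and 1 at 8 h (Id1), with medians of −0.23 and −0.07. Id1, an inhibitor of bHLH factors, had 93.8, 35.8 and 37.6 TPM, and Skil, which represses SMADs, had 566, 322 and 336 counts.

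In the G1 phase of the cell cycle, 1 of 20 genes was higher and 3 lower at 5 h, and 0 were higher and 2 lower at 8 h. Ccnd1 (cyclin D1) had 60.1, 25.5 and 20.5 TPM and its kinase partner Cdk6 18.8, 8.58 and 6.31 TPM, and both were lower at each time. Ccne1 (cyclin E1) was lower at 5 h only (182, 103 and 179 counts), and Rb1, which restrains entry into S phase, was higher at 5 h (4.68, 11.5 and 9.22 TPM). The median of the list was 0.00 and 0.03, of no stable sign between scalings. Of 26 mitotic cyclins and kinases and 24 genes of the MCM helicase and origin licensing, 0 were called at either time. Their medians were 0.18 and 0.15, and −0.07 and 0.01, and the last changed sign with other scalings. Of 27 genes of the actin cytoskeleton, 0 were called, with medians of 0.03 and −0.13.

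Of 16 genes of the BCL2 family and death receptors, 3 were lower at 5 h (Bok, Bcl2l11 and Bbc3) and 2 at 8 h (Bok and Pmaip1), each with under 100 counts in every library, and 0 were higher. The median was −0.53 at 5 h and −0.24 at 8 h.

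Genes of the NRF2 and antioxidant list were called lower for 2 of 32 at 5 h and higher for 3 at 8 h. The shares of all genes were 4.77% lower at 5 h and 3.28% higher at 8 h. Srxn1, which repairs peroxiredoxins, had 16.3 TPM in the control, 25.6 after 5 h and 73.8 after 8 h, from 45, 86 and 223 counts. Gstm1, a glutathione transferase, had 42.0, 69.2 and 122 TPM, and Gclc, the rate-limiting enzyme of glutathione synthesis, 17.6, 24.2 and 40.1 TPM. These 3 were above the control at both times and highest at 8 h. The metallothioneins Mt1 (557, 251 and 522 TPM) and Mt2 (438, 197 and 375 TPM) were lower at 5 h and near the control at 8 h. Across these genes the median was 0.13 and 0.30.

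Of 26 cytosolic heat shock genes, 2 were higher and 1 lower at 5 h, and 1 was higher at 8 h. Hspa1a and Hspa1b are near-identical copies whose counts can be split by the counting, so their single values are uncertain. Hspa1b had 807, 2312 and 2427 counts and Hspa1a 221, 29 and 456. Summed, they had 1028, 2341 and 2883 counts, with intervals of 0.83 to 1.04 at 5 h and 1.24 to 1.45 at 8 h. Dnajb5, a J-domain co-chaperone, had 53, 149 and 95 counts. The list median was −0.01 at 5 h, of no stable sign between scalings, and 0.11 at 8 h. Of 36 proteasome subunits, 0 were called, with a median of 0.10 at both times.

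For glucose uptake and glycolysis, 0 of 26 genes were called at 5 h, and 2 were higher and 1 lower at 8 h. The glucose transporter Slc2a1 had 123, 156 and 269.8 TPM and the lactate exporter Slc16a3 44.4, 87.4 and 146 TPM. Hk2, a hexokinase, had 20.3, 13.3 and 9.95 TPM. Over the list, the median was 0.01 at 5 h, negative with DESeq2 size factors, and 0.23 at 8 h. Of 76 subunits of oxidative phosphorylation, 1 was higher at 5 h, Atp5s, from 8, 39 and 25 counts, and 0 were called otherwise. Their medians were 0.04 and 0.09.

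Of 42 lysosomal genes, 35 were under the control at 5 h and 20 at 8 h, beside 5034 and 4179 of the 10432 genes analysed. The difference between the times was not tested, and the median was −0.33 at 5 h and 0.01 at 8 h, where its sign turned with other scalings. The 3 called lower at 5 h were the hydrolases Naglu (170, 62 and 134 counts), Arsa (20.4, 9.35 and 18.9 TPM) and the protease Ctsf (93, 27 and 117 counts), and 0 were called at 8 h. The summed TPM was 10927, 9367 and 11660.

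Of 32 autophagy genes, 2 were lower at 5 h, and 2 were higher and 1 lower at 8 h. All genes together had 4.77% lower at 5 h, and 3.28% higher and 2.73% lower at 8 h. Optn, an autophagy receptor, was lowest at 5 h (150, 57 and 216 counts). Wipi1, which binds phosphoinositides (10.6, 15.7 and 24.4 TPM), and Atg13, a subunit of the starting kinase complex (103, 183 and 242 counts), were highest at 8 h. Atg10, with 28, 0 and 13 counts, was lower at both times. In all, the list had a median of 0.03 and 0.34.

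The target of Tg and its partners were listed as 23 genes of SERCA, calcium channels and store refilling. The 1 gene called was Stim2, the calcium sensor that opens store-operated channels, which was lower at both times. It had 19.2, 2.44 and 5.31 TPM from 309, 49 and 97 counts, with intervals of −3.38 to −2.47 and −2.16 to −1.48. The genes of the list had a median of −0.09 at 5 h, 0.24 at 8 h and 0.40 for 8 h over 5 h. Of 19 interferon-stimulated genes, Oasl2 was lower at both times (87, 29 and 51 counts) and Oasl1 higher at 8 h (45, 37 and 106 counts), with list medians of −0.47 and −0.42.

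Of 77 cytosolic ribosomal proteins, 52 were under the control at 5 h and 75 at 8 h, all by less than 2-fold. The median was −0.10 at 5 h and −0.45 at 8 h (order-statistic interval −0.51 to −0.39), beside 0.00 and 0.04 for all genes. The summed TPM was 127450 in the control, 119890 after 5 h and 93396 after 8 h. The 1 gene called was Rpl34, higher at 8 h from 9, 0 and 40 counts, and uncertain because ribosomal protein genes have near-identical copies. Of 77 mitochondrial ribosomal proteins, 34 were above and 43 under the control at 5 h, and 39 and 38 at 8 h. Of these, 5 were lower at 5 h and 1 at 8 h. Mrps18a had 70.7, 49.4 and 29.9 TPM, Mrpl17 196, 94.8 and 160 TPM, Mrps12 53.2, 23.8 and 44.3 TPM and Mrpl48 35.4, 17.1 and 30.3 TPM. Mrpl41 and Mrpl57 were the others lower at 5 h. The median was −0.08 at 5 h and 0.01 at 8 h, negative with other scalings.

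**Figure D4:**
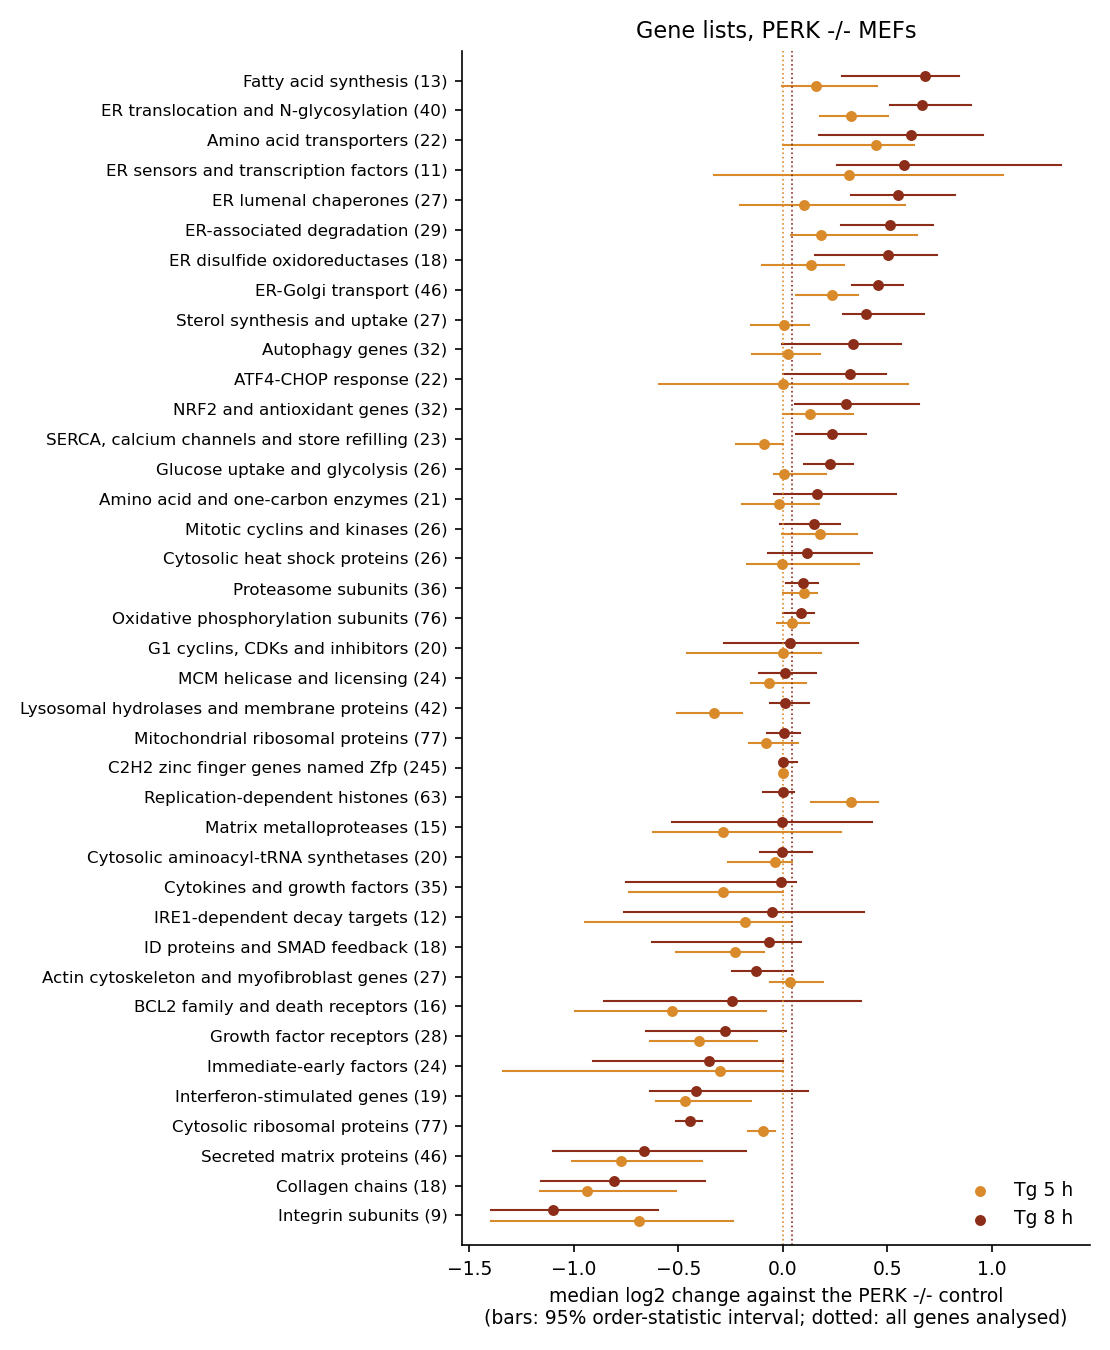
Median log2 change of each of the 39 gene lists against the PERK -/- control at 5 h (orange) and 8 h (brown) of Tg, with 95% order-statistic intervals over genes; the number of genes analysed is in parentheses and dotted lines mark the medians of all genes. Collagen, secreted matrix and integrin lists lie lowest at both times, and the ribosomal list lies lower at 8 h than at 5 h.

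Replication-dependent histones have near-identical coding sequences, and their single values are uncertain. Of 63 genes, 4 were higher and 4 lower at 5 h, and 2 were higher and 1 lower at 8 h, with medians of 0.32 and 0.00. Hist1h2bl, for example, had 0, 344 and 392 counts. Hist1h2bc had 2576, 85 and 2148 counts, Hist1h2ad 352, 4416 and 747, and Hist1h3h 963, 1053 and 0. Summed over 67 histone genes there were 131779, 191486 and 137966 counts, a log2 change of 0.28 at 5 h and −0.08 at 8 h. Of 245 zinc finger genes named Zfp, 15 were higher and 9 lower at 5 h, and 6 were higher and 3 lower at 8 h, with medians of 0.00 at both times. Over all genes, 3.26% were higher and 4.77% lower at 5 h, and 3.28% higher and 2.73% lower at 8 h. Zfp637 is among the 6 Zfp genes higher at 8 h and falls short of 2-fold with TMM or DESeq2 factors. Zfp747 had 42, 136 and 86 counts and Zfp800 154, 70 and 140. Zfp960 (105, 3 and 31 counts) and Zfp955b (31, 149 and 16 counts) belong to clusters of similar genes and are uncertain.

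Outside the lists, the genes with the largest increases at both times served varied roles. Plpp1, a lipid phosphate phosphatase, had 87.0, 235 and 258 TPM. Npr3, the clearance receptor for natriuretic peptides, had 12.6, 65.1 and 35.2 TPM, and was lower at 8 h than at 5 h (interval −1.07 to −0.70). Ly96, the partner of TLR4, had 15.9, 47.6 and 63.6 TPM. The others were Mettl7a1 (20, 102 and 118 counts), Prss35 (48, 168 and 224 counts), 6430548M08Rik (37, 108 and 180 counts) and the potassium channel Kcnj2 (18, 146 and 100 counts). Brwd1, a bromodomain protein, was 3.82-fold and 2.79-fold higher in TPM, but its 293, 308 and 336 counts gave −0.18 and 0.05 per library total, so its increase is not a gain of footprints on the gene. For Kcnj2, Srf, Ctsf and Stim2 the log2 changes of floored TPM and of counts also lay more than 0.5 apart, and their sizes are less certain than their direction. Each had a TPM value raised to the floor of 4: Kcnj2 in the control (2.07), and Srf (2.42), Ctsf (2.34) and Stim2 (2.44) at 5 h. Changes that use these values understate the changes of the counts. Outside the lists, decreases at both times included Ccbe1, a secreted matrix-binding protein (315, 42 and 53 counts), the homeobox gene Rhox8 (317, 78 and 44 counts) and Dok1, an adaptor of tyrosine kinases (298, 82 and 72 counts).

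Several of the largest ratios between the late libraries were for genes that may have similar or overlapping copies, and are uncertain. Eif3j1 had 1384, 0 and 980 counts and Eif3j2 0, 1109 and 0 counts. These genes of a translation factor are near-identical, and how reads were assigned between them was not tested. Summed, the pair had 1384, 1109 and 980 counts, and the late libraries did not differ beyond counting error (interval −0.19 to 0.06). The same caution holds for LOC102637269 (38, 0 and 162 counts), Prl2c2 (41, 0 and 126 counts), Gm13213 (194, 9 and 163 counts), Gm40814 (0, 184 and 0 counts), Gm8369 (8, 106 and 29 counts) and the readthrough gene Clk2-scamp3 (71, 308 and 16 counts). Not noted here as copies, Mesdc1 (61, 201 and 49 counts) and Ccdc163 (27, 122 and 32 counts) were high at 5 h alone.

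**Figure D5:**
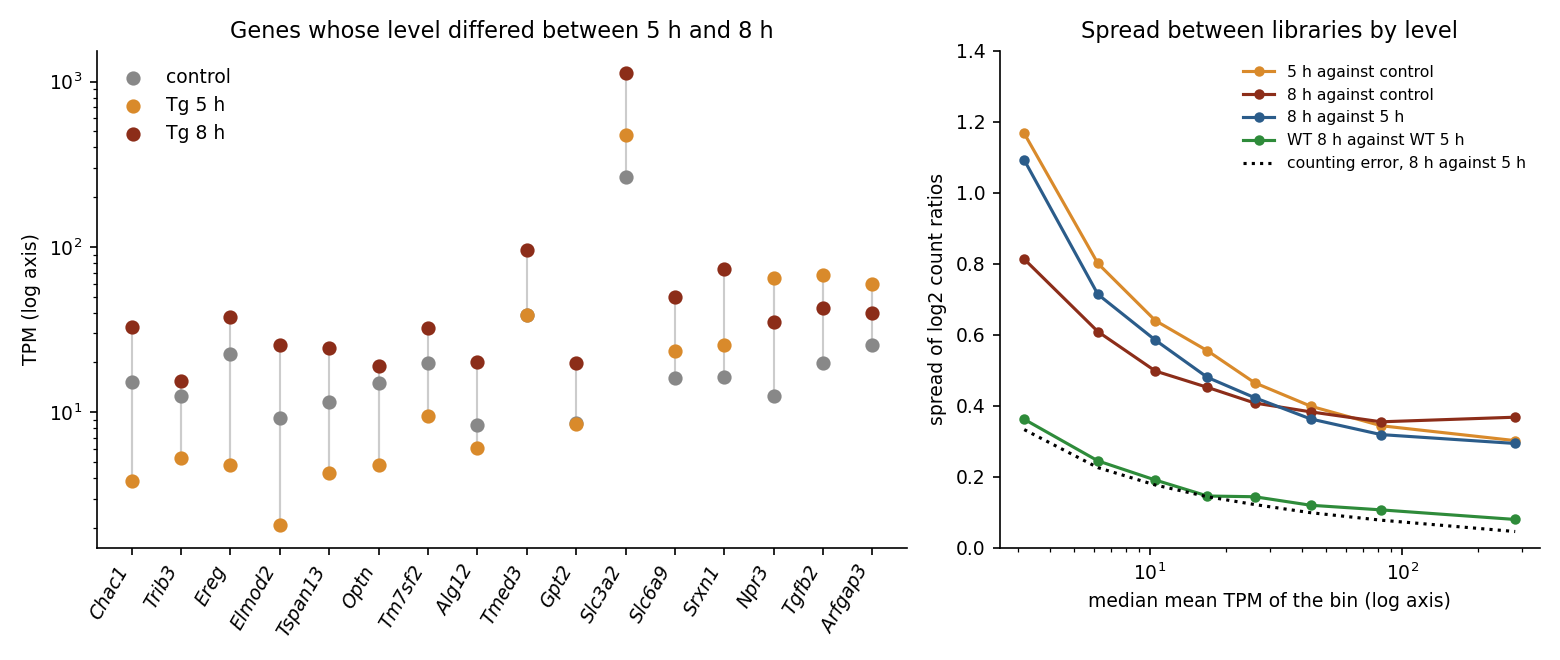
Left, TPM (log axis) of 16 genes whose level differed between 5 h and 8 h of Tg, 1 point per library; Chac1, Trib3, Ereg, Elmod2, Tspan13, Optn, Tm7sf2 and Alg12 are lowest at 5 h, and Npr3, Tgfb2 and Arfgap3 are highest there. Right, spread (log2) of count ratios between pairs of libraries in 8 bins of mean TPM (log axis), with the spread that counting error alone gives as a dotted line.

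The distance between the late libraries was larger than counting error at every level. In the lowest of 8 bins of mean TPM, the spread of log2 count ratios was 1.09 between 8 h and 5 h, where counting error alone gives 0.333. In the highest bin it was 0.294, beside 0.046. The WT libraries of 5 h and 8 h, which are different times and not replicates, had 0.362 beside 0.339 in the lowest bin and 0.080 beside 0.048 in the highest. Against the control, the lowest bin had 1.17 at 5 h and 0.813 at 8 h, and the highest 0.302 and 0.368. The 5 h library was farther from the control from the lowest bin up to bin 6 (0.399, beside 0.383 at 8 h). The 8 h library was farther in bin 7, by little (0.355, beside 0.344 at 5 h), and in the highest bin. Whether the WT libraries share a culture is not stated in the labels, so their small distance is no measure of replicate spread. Whether the PERK -/- distances come from time or from the libraries themselves was not tested. GC content and coding length moved little with the changes: in 5 bins of each, over the 96.1% of genes with a coding sequence, the medians lay between −0.02 and 0.10.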

How the data were processed

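Ribosome footprints of the 10 MEF libraries, 1 per condition, were read from tables with 1 column per library. The authors removed rRNA and tRNA reads with STAR, aligned the rest to clipped RefSeq coding sequences of mm10 with Bowtie2 and quantified them with RSEM, all without stated versions. As deposited, the expected counts are whole numbers, not scaled between libraries. The TPM values deposited by the authors are scaled within each library to coding length and total. Date-like names had replaced 25 symbols and were left unchanged.

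From these, log2 ratios of floored TPM and exact count intervals were computed, and medians with binomial order-statistic intervals. The calling step was tested on simulated data. Genes, 39 gene lists and cell type markers were chosen with earlier results of these data known. Named genes were the 12 with the largest increase and the 12 with the largest decrease shared by both times, the 8 with the largest and the 8 with the smallest ratio of 8 h to 5 h, up to 6 called in opposite directions, up to 4 called members per list, all with at least 100 expected counts, and 9 genes of the UPR.

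Alternatives were a floor or a pseudocount of 1 TPM, a mean TPM of at least 5 or no limit, 3-fold, TMM factors, DESeq2 size factors, CPM, counts thinned to the smallest library and values with a lowess fit on GC content (fraction 0.3) subtracted. Added after seeing the data were the limit without the 5 h library, at least 100 expected counts, and 2-fold in both TPM and CPM. Coordinates and promoters came from RefSeq on GRCm38. The software was DESeq2 1.42.0 and edgeR 4.0.16 under R 4.3.3, and matplotlib 3.10.9, statsmodels 0.14.6, scipy 1.17.1, pandas 2.3.3 and numpy 2.4.6 under Python 3.11.15.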

Additional observations from a re-analysis of the deposited data

Results flagged for a closer look

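Where 1 of the 3 libraries reached 100 expected counts, 5 genes moved past 2-fold down at 5 h and past 2-fold up at 8 h against the shared PERK -/- control. The log2 changes were −1.94 and 1.10 for Chac1, −1.20 and 1.48 for Elmod2, which acts on ARL GTPases, and −1.43 and 1.09 for the tetraspanin Tspan13. The counts of Elmod2 were 53, 11 and 133, and those of Tspan13 44, 20 and 103, with the control first. For Elmod2, floored TPM and counts lay apart at 5 h: the change of counts was −2.52. For LOC102637269 they were −3.46 and 1.97, and for Prl2c2 −1.38 and 1.38, 2 genes with 0 counts at 5 h whose counting is uncertain because similar copies may exist. With CPM floored at 4, only 1 of the 9 genes called in opposite directions was still so called. With 1 library per time, the difference between the times was not tested.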

How the results depend on the processing

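With 1 library per condition no replicate could be left out, and no significance test was made. Calls by the 2-fold rule could be lost: 275 of the 342 genes higher at 8 h kept the call with TMM factors. Each list median was counted once per comparison and per alternative that recomputed it. Of these, 1014 moved by less than their interval and 39 by more. Of the values of single genes, counted in the same way, 3347 moved by less than their counting interval and 174 by more. Among values past 2-fold, 1 changed sign: Brwd1 at 5 h, from 1.93 in TPM to −0.18 in CPM. Sign changes of smaller values of single genes were not counted. The list medians that changed sign under another scaling lay between −0.02 and 0.07.

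The counts of called genes depended most on the floor and the fold. At 3-fold, 55 genes were higher and 148 lower at 5 h, 50 higher and 70 lower at 8 h, 8 higher and 37 lower at both, 1 opposite, and 95 higher and 38 lower at 8 h than at 5 h. With a floor of 1 TPM, 883 were lower at 5 h, 551 higher and 449 lower at 8 h, 199 higher and 224 lower at both, 42 opposite, and 869 higher and 339 lower at 8 h than at 5 h. A pseudocount of 1 TPM gave 754 lower at 5 h and 27 opposite, and CPM floored at 4 gave 2 opposite, of which 1 was among the 9. With at least 100 expected counts, by construction fewer genes, 216 were higher and 329 lower at 5 h, 5 opposite, and 285 higher and 113 lower at 8 h than at 5 h. The scalings moved the median of all genes by less than 0.1 (log2). At a floor of 3 counts the depth limits what can be said of genes near 0.403 CPM or less at 8 h.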
